A study of Mus musculus with 8 samples.

Results

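The P4 flippases examined here were the 9 genes Atp8a1, Atp8a2, Atp8b4, Atp9a, Atp9b, Atp10a, Atp10d, Atp11a and Atp11b, taken by symbol from tables that list 20207 genes. Atp10d was selected on its RPKM in CML stem cells against normal HSCs and against CML progenitors in these same libraries, so its CML against normal and stem against progenitor values are given as descriptions with no test, and the other 8 came with it as relatives. Of the 9 genes, 8 were among the 12561 whose RPKM summed to more than 1 across all libraries, the filter used for every test, and Atp8a2 was not. RPKM is a read count divided by transcript length and by the mapped reads of the library.

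The study surveyed metabolic differences between leukaemic stem cells of chronic myeloid leukaemia (CML) and normal haematopoietic stem cells (HSCs). It turned to gene expression to ask why dipeptides build up in immature CML cells. RNA from sorted mouse bone marrow cells was sequenced as 8 libraries, with 2 each of the normal and CML long-term cells (LT-HSCs and LT-CML stem cells), 1 each of the short-term cells (ST-HSCs and ST-CML stem cells) and 1 each of normal KLS- and CML-KLS- progenitors. KLS cells carry c-Kit and Sca-1 and no lineage markers, KLS- cells lack Sca-1, and LT and ST cells are KLS cells without CD48 and CD135 that do (LT) or do not (ST) carry CD150. The 6 LT and ST libraries are called stem libraries.

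The labels give the normal LT-HSC libraries as cells of mice 2 months old (LT-HSC 1) and 6 months old (LT-HSC 2), and the other normal libraries as 2 months old. They give no age for the CML libraries, and the methods describe the sorted CML and control mice as 8 to 12 weeks old, which differs from the 6 months of LT-HSC 2. In the study's methods, CML mice carried Tal1-tTA and TRE-BCR-ABL1, in which the transactivator tTA, described there as active in HSCs, switches on BCR-ABL1 through TRE once doxycycline is withdrawn, and the controls were littermates with Tal1-tTA alone. The labels give the strain C57BL/6 for all 8 libraries, and the methods describe this model on FVB/N. H2-Ea, a class II gene known to be silent in the C57BL/6 haplotype, stood at 0.0640, 0.0535, 0 and 0 RPKM in LT-HSC 1, LT-HSC 2, ST-HSC and normal KLS- cells. It stood at 1.23, 0.772, 1.58 and 0.143 RPKM in LT-CML 1, LT-CML 2, ST-CML and CML-KLS- cells, so all CML libraries lay above all normal ones. Strain and disease cannot be told apart in these libraries, and their part in the differences between CML and normal cells given below was not tested. The LT-HSC libraries came from mice of different ages, so their spread includes that difference, and the labels do not say whether the LT-CML libraries came from separate animals, so their spread may be technical. The p-values measure only the spread between these samples.

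P4 ATPases move lipids from the outer or luminal leaflet of a membrane to the cytosolic leaflet, at the cost of ATP, and so keep phosphatidylserine and phosphatidylethanolamine on the inner side. Most of them need a CDC50 subunit to leave the endoplasmic reticulum, and scramblases undo the asymmetry that they build. Atp10d belongs to the branch that handles glucosylceramide, Atp10a to the same branch with phosphatidylcholine as its known lipid, Atp8a1, Atp8a2, Atp11a and Atp11b carry aminophospholipids, and Atp9a and Atp9b work in endosomes and the trans-Golgi network without CDC50.

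During each transport cycle a P4 ATPase takes up phosphate on an aspartate in a short conserved stretch. The coding sequence around it is shown for the 5 members that the results below turn on, since it shows what the family shares and that the Atp10d transcript still encodes the stretch. In each line the capitals mark 7 codons that start with that aspartate, with 9 bases on either side, read 5′ to 3′ on the coding strand of NCBI Build 37 (mm9).
Atp10d: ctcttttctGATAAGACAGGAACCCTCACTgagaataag
Atp10a: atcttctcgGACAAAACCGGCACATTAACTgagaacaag
Atp8a1: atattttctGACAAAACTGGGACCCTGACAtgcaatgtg
Atp8b4: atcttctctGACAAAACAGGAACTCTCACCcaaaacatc
Atp11b: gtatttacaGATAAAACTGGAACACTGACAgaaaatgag
The capitals lie at chr5:72638460-72638480 on the plus strand for Atp10d (codon 491, exon 9 of 23), chr7:66043732-66043752 on the plus strand for Atp10a, chr5:68152403-68152423 on the minus strand for Atp8a1, chr2:126223373-126223393 on the minus strand for Atp8b4 and chr3:35708297-35708317 on the plus strand for Atp11b. Over these 21 bases Atp10d differs from Atp8b4 at 4 positions, Atp11b at 5, Atp8a1 at 6 and Atp10a at 7. The stretch was found in each member by searching for the same 7 amino acids, so none of these differences changes an encoded amino acid. They do not measure how closely the members are related.

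Atp10d (chr5:72594568-72690014, plus strand) is annotated as a long non-coding RNA in GENCODE M1 and as a transcribed pseudogene in the RefSeq table (assembly GRCm38.p6, C57BL/6J), while the other 8 members are annotated as protein-coding in GENCODE M1. C57BL/6 mice are known to carry a premature stop codon in Atp10d that some other laboratory strains lack. In the reference genome, which is C57BL/6J, the 6052-base transcript Atp10d-001 reads from its first in-frame start codon to a TAA at codon 817, in exon 12 at chr5:72655710-72655712, and after it the frame runs on for a further 652 codons before the next stop. The stop is given in capitals with 30 bases on either side (chr5:72655680-72655742, plus strand), since it lies downstream of the phosphorylation stretch and inside the transcript whose level is described next.
Atp10d stop: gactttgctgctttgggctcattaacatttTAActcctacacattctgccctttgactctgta
Which base these mice carry at the stop was not analysed here.

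The estimated depth was 17.8 to 23.9 M reads per library (median 19.4). A marker check followed the split into stem and KLS- cells. The summed RPKM of 5 long-term HSC markers (Slamf1, Procr, Mecom, Hlf and Fgd5) was 85.5 to 145 in the 6 stem libraries. It was 3.89 and 5.28 in the KLS- libraries. In the other direction, the sum of the committed myeloid markers Cd48, Mpo, Ctsg and Prtn3 was 9548 and 15075 in KLS- cells. The stem libraries were uneven in that list, with 108 to 275 in the 3 normal ones, 109 in LT-CML 1, 1184 in ST-CML and 1737 in LT-CML 2. The sum of 6 mature neutrophil and monocyte markers was 4169 in LT-HSC 2 and 174 to 1121 in the other 7 libraries. The long-term marker sum did not separate LT from ST cells, with 110 in ST-HSCs and 145 in ST-CML against 85.5 to 131 in LT libraries. Slamf1, the gene of CD150, was at 10.7 to 35.45 RPKM in LT and 1.11 and 2.87 RPKM in ST libraries. Cd48 was at 5.17 to 29.5 RPKM in LT and 41.8 and 45.15 RPKM in ST libraries, although both sorts exclude CD48.

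The Atp10d transcript was higher in CML than in normal cells in every sorted population, and its protein was not measured. The transcript level was 3.53 RPKM in LT-HSC 1, 4.12 in LT-HSC 2 and 5.40 in ST-HSCs. It was 11.2 in LT-CML 1, 7.46 in LT-CML 2 and 13.8 in ST-CML stem cells. The lowest CML stem library was thus above the highest normal stem library, as for 6.92% of all genes tested. In KLS- progenitors the level was 1.36 RPKM in normal and 4.68 RPKM in CML cells, so the CML-KLS- library lay inside the range of the normal stem libraries.

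Normal HSCs averaged 4.35 RPKM ± 0.957 of Atp10d (SD, n = 3) and CML stem cells 10.8 ± 3.18 (n = 3), a ratio of 2.49. On the log2(RPKM + 1) scale used for all fits, which understates changes of low genes, CML stem cells exceeded normal HSCs by 1.12 (SE 0.24), LT-CML exceeded LT-HSCs by 1.08 (SE 0.24), ST-CML exceeded ST-HSCs by 1.21 and CML-KLS- exceeded normal KLS- cells by 1.27. The last pair, like the ST pair, has 1 library on each side. In KLS- cells Atp10d was the member of the 8 past the filter that differed by more than 2-fold on this scale, where 3.24% of all genes tested did so. These values rest on an estimated 167 to 1554 reads per library, which gives counting errors of 2.54% to 7.74%. Such errors were far below the differences between CML and normal cells of the same population, and they cover counting only.

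Within each disease state the ST library had the highest and the KLS- library the lowest Atp10d level. ST-HSCs at 5.40 RPKM lay above both LT-HSC libraries, and ST-CML stem cells at 13.8 RPKM above both LT-CML libraries. LT cells were lower than ST cells by 0.47 on the log2 scale (SE 0.18) in a fit with disease as a term, and the difference did not pass the limma test over all genes (adjusted p = 0.222). Stem cells exceeded KLS- progenitors by 1.09 on the log2 scale (SE 0.22), with ratios of mean RPKM of 3.20 in normal and 2.31 in CML cells. From highest to lowest, the order was ST-CML, LT-CML 1, LT-CML 2, ST-HSC, CML-KLS-, LT-HSC 2, LT-HSC 1 and normal KLS- cells. From ST-HSC to LT-HSC 1 in that order, the 95% exact Poisson intervals of neighbours overlapped (4.98 to 5.84, 4.28 to 5.10, 3.79 to 4.46 and 3.20 to 3.88 RPKM). The gap between LT-CML 1 and LT-CML 2 (0.53 on the log2 scale) was larger than that between CML-KLS- and LT-HSC 2.

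**Figure D1:**
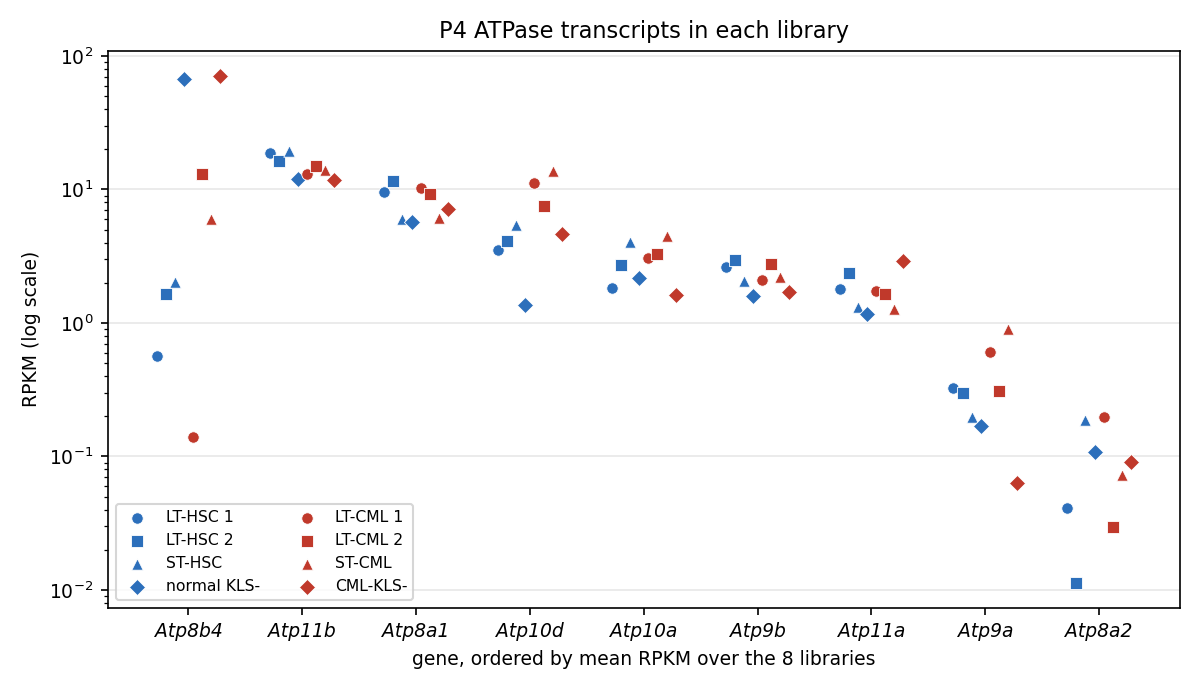
RPKM of the 9 P4 ATPase genes on a log axis, with 1 point per library, blue for normal and red for CML cells, and the marker shape giving the sorted population. Atp8b4 runs from 0.140 RPKM in LT-CML 1 to 70.8 RPKM in CML-KLS- cells, whereas Atp11b stays between 11.9 and 19.5 RPKM.

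Neither of the neighbours of Atp10d on chromosome 5 that could be tested passed between CML and normal stem cells. Among the 5 genes with a row on either side, 8 did not pass the filter on low values and 2 were tested. Commd8, which is involved in protein trafficking, was at 12.7, 12.7 and 14.7 RPKM in LT-HSC 1, LT-HSC 2 and ST-HSCs and at 13.1, 12.7 and 11.2 RPKM in LT-CML 1, LT-CML 2 and ST-CML stem cells. The zinc finger gene Nfxl1 was at 1.02, 1.42 and 1.06 RPKM in the same normal and at 1.66, 1.18 and 1.23 RPKM in the same CML libraries. Their log2 differences between CML stem cells and normal HSCs were -0.11 and 0.12 (limma adjusted p = 0.809 and 0.797). Of the 10032 genes tested with a mean of at least 1 RPKM, the 5 most like Atp10d by Pearson correlation over the 8 libraries were the splicing kinase gene Clk3 (r = 0.989), the zinc finger gene Zfp560 (r = 0.986), Fbxw10 (r = 0.973), Ttc38 (r = 0.971) and Acsf2 (r = 0.970). Acsf2, an acyl-CoA synthetase gene, stood at 1.17 to 2.13 RPKM in normal and 3.24 to 5.53 RPKM in CML stem libraries. These 5 genes were picked for their likeness to Atp10d over the same 8 libraries. A split between CML and normal libraries in them, as in Acsf2, follows from that choice. The 8 points of each correlation share their depth, strain and disease state.

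Atp10a, the closest relative of Atp10d in the set by branch, had its highest levels in the ST libraries. It was at 1.83 and 2.72 RPKM in LT-HSCs, 4.03 in ST-HSCs and 2.19 in normal KLS- cells, and at 3.09 and 3.29 in LT-CML, 4.50 in ST-CML and 1.62 in CML-KLS- cells. Both ST libraries exceeded all 4 LT libraries, with a mean of 4.27 RPKM against 2.73, and the difference missed the threshold (LT lower by 0.51 on the log2 scale, SE 0.17, limma adjusted p = 0.157). CML stem cells and normal HSCs overlapped (0.29, SE 0.24, limma adjusted p = 0.697). The LT-CML libraries lay above the LT-HSC libraries (0.37, SE 0.21, limma adjusted p = 0.602), while in KLS- cells the CML library was the lower one.

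Atp8b4, a member whose lipid is little characterised, showed the largest range of the family and was the single tested member whose level passed the test in any comparison. It stood at 66.9 RPKM in normal and 70.8 RPKM in CML-KLS- progenitors. The stem libraries held 0.562 RPKM in LT-HSC 1, 1.64 in LT-HSC 2, 2.02 in ST-HSCs, 0.140 in LT-CML 1, 13.0 in LT-CML 2 and 5.97 in ST-CML cells. The KLS- libraries were therefore both above all 6 stem libraries, and their mean of 68.8 RPKM ± 2.70 (SD, n = 2) was 17.7 times the stem mean of 3.88 ± 4.90 (n = 6). Stem cells fell by 4.39 on the log2 scale relative to KLS- cells (SE 0.78, limma adjusted p = 0.00309), where 19.0% of all genes tested were called lower in stem cells and 41.6% were called in either direction (22.7% higher). Both KLS- libraries lay above all stem libraries for 21.9% of all genes. Without the normal KLS- library the difference was -3.90 and no longer passed (limma adjusted p = 0.0559, the highest of 15 alternatives, of which the lowest was 0.00167). In cell populations, fewer cells of a type and less RNA per cell cannot be told apart.

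The stem libraries themselves differed widely in Atp8b4. LT-CML 2 held 92.7 times the RPKM of LT-CML 1, whose value rests on an estimated 16 reads (95% exact Poisson interval 0.0780 to 0.220 RPKM). Normal HSCs averaged 1.41 RPKM ± 0.756 (SD, n = 3) and CML stem cells 6.36 ± 6.42 (n = 3), and the difference was within that spread (1.05, SE 0.82, limma adjusted p = 0.682). It was 0.28 without LT-CML 2 and 2.09 without LT-CML 1. In LT cells alone the difference was 0.98 (SE 0.98, limma adjusted p = 0.803), and it was -0.83 without LT-CML 2.

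The stem libraries had the same order for Atp8b4 as for Mpo, the myeloperoxidase gene of committed myeloid progenitors, and not for Cd48, Ctsg or Prtn3, the other 3 measured genes of that marker list. Mpo was at 31.8, 69.9 and 95.5 RPKM in LT-HSC 1, LT-HSC 2 and ST-HSCs, at 5.20, 1291 and 830.1 RPKM in LT-CML 1, LT-CML 2 and ST-CML stem cells, and at 7891 and 13120 RPKM in normal KLS- and CML-KLS- cells. The shared order over the 6 stem libraries was noticed after the values were seen, and 8 of the 12560 other tested genes (0.0637%), Mpo among them, had it. Among all the tested cell type markers Mpo alone had it. The match was thus picked from many, and the share does not measure its strength. The part of progenitors carried into the stem sorts in the Atp8b4 values was not tested.

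**Figure D2:**
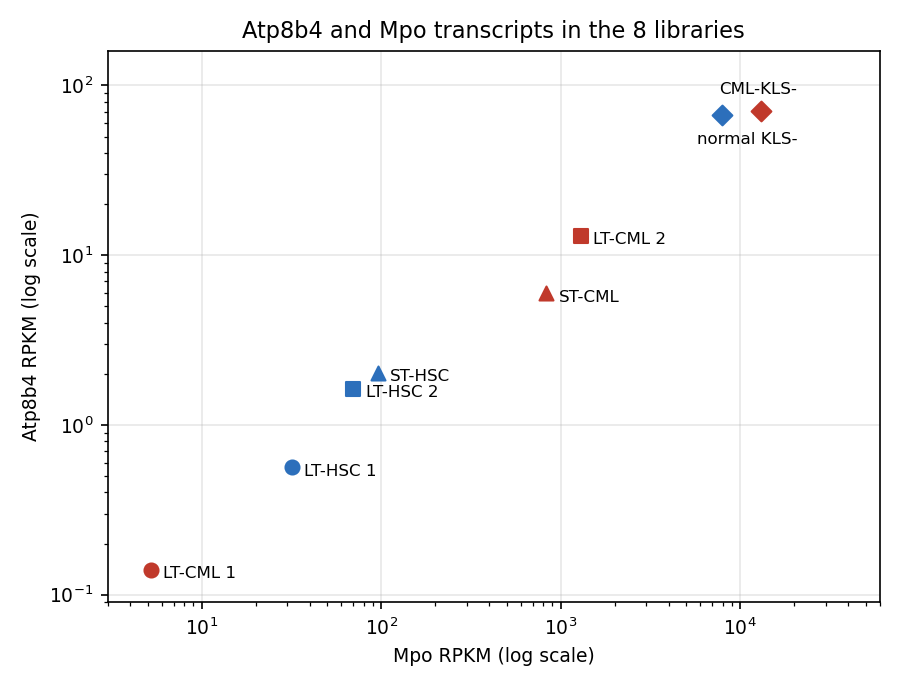
Atp8b4 RPKM against Mpo RPKM, both on log axes, with 1 labelled point per library. Both genes are lowest in LT-CML 1 (0.140 and 5.20 RPKM), and LT-CML 2 (13.0 and 1291 RPKM) is the stem library nearest to the KLS- libraries.

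Atp8a1, a phosphatidylserine flippase, was higher in LT than in ST cells of either disease state, by a difference that narrowly missed the threshold. Its level was 9.52 and 11.5 RPKM in LT-HSCs and 10.2 and 9.28 RPKM in LT-CML cells. The ST libraries held 6.04 RPKM in normal and 6.15 RPKM in CML cells, and the KLS- libraries 5.75 and 7.15 RPKM. All 4 LT libraries thus exceeded the 4 others. The LT mean of 10.1 RPKM (n = 4) was 1.66 times the ST mean of 6.10 RPKM (n = 2), a log2 difference of 0.65 (SE 0.15, limma adjusted p = 0.0592). Over 13 alternative settings the adjusted p ran from 0.0428 to 0.505.

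Between LT and ST cells none of the 8 tested members passed limma at an adjusted p under 0.05, where 4.08% of all genes did, and 3 had an unadjusted p under 0.05 (Atp8a1, Atp10a and Atp10d), where 18.3% of all genes did. Atp8a1 and Atp11a were higher in all LT than in all ST libraries, as were 12.9% of all genes, and Atp10a was lower in all, as were 11.3%. Atp8a1 overlapped between CML stem cells and normal HSCs: normal HSCs averaged 9.02 RPKM ± 2.77 (SD, n = 3) and CML stem cells 8.56 ± 2.14 (n = 3) (limma adjusted p = 0.959).

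Atp11b, an aminophospholipid flippase of endosomal membranes, had the highest level of the family in all 6 stem libraries on this per-length scale. In ST-CML cells its lead over Atp10d was within counting error (13.9 against 13.8 RPKM, 95% exact Poisson intervals 13.1 to 14.7 and 13.1 to 14.5). Atp11b was also the single member lower in all CML stem libraries than in all normal ones, as were 11.4% of all genes. It was at 18.8, 16.3 and 19.5 RPKM in LT-HSC 1, LT-HSC 2 and ST-HSCs, and at 13.0, 14.96 and 13.9 RPKM in LT-CML 1, LT-CML 2 and ST-CML cells. KLS- cells held 12.02 RPKM in normal and 11.9 in CML mice, and were lowest of all. CML stem cells averaged 14.0 RPKM ± 0.986 (SD, n = 3) and normal HSCs 18.2 ± 1.70 (n = 3), a log2 difference of -0.36 (SE 0.14, unadjusted p = 0.0327, limma adjusted p = 0.340) that did not pass. Stem cells exceeded KLS- cells by 0.39 on the log2 scale (SE 0.14, limma adjusted p = 0.0517). This value lay beside the threshold and passed under 5 alternative settings of scaling, offset, filter or variance model and without LT-HSC 2, with an adjusted p of 0.0142 to 0.0489 (0.0142 to 0.455 over all 15 alternatives).

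Atp11a, a plasma membrane flippase of aminophospholipids, was low throughout. The stem libraries spanned 1.27 to 2.36 RPKM, with the ST libraries (1.31 in normal and 1.27 in CML cells) below all LT libraries. In KLS- progenitors it was at 1.17 RPKM in normal and 2.90 in CML cells, a ratio of 2.48 without replicates that stayed under 2-fold on the log2(RPKM + 1) scale (0.85). The disease difference in stem cells minus that in KLS- cells was -0.98 (SE 0.35, unadjusted p = 0.0237, limma adjusted p = 0.9999). None of the 7 members tested for this interaction passed limma at an adjusted p under 0.05 (1 of all genes, 0.00796%, did), and Atp11a was the member with an unadjusted p under 0.05, as had 2.58% of all genes.

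The endosomal members were low, and neither passed in any comparison. Atp9b was at 2.64, 2.96, 2.07 and 1.58 RPKM in LT-HSC 1, LT-HSC 2, ST-HSC and normal KLS- cells, and at 2.09, 2.77, 2.20 and 1.70 RPKM in LT-CML 1, LT-CML 2, ST-CML and CML-KLS- cells. Both KLS- libraries lay below all stem libraries, by 0.38 on the log2 scale (SE 0.15, limma adjusted p = 0.0693). Atp9a, at 0.0636 to 0.897 RPKM and 4 to 62 estimated reads, was also below its stem levels in both KLS- libraries (0.35, SE 0.16, limma adjusted p = 0.102). Atp9a had its highest values in ST-CML (0.897 RPKM) and LT-CML 1 (0.602 RPKM), but LT-CML 2 (0.311 RPKM) lay within the normal stem range of 0.196 to 0.327 RPKM (limma adjusted p = 0.437). Atp8a2, known from brain and retina, stayed at 0.0114 to 0.197 RPKM, which is 1 to 15 estimated reads, and was not tested. The 95% exact Poisson intervals of its values did not all overlap, with 0.110 to 0.324 RPKM in LT-CML 1 and 0.000288 to 0.0633 RPKM in LT-HSC 2.

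For the pooled comparison of CML stem cells with normal HSCs, none of the 7 members tested (Atp10d left aside) passed limma at an adjusted p under 0.05, where 2.34% of all genes did, and 1 (Atp11b) had an unadjusted p under 0.05, where 12.5% of all genes did. For LT-CML against LT-HSCs none passed by limma either (1.73% of all genes), none had an unadjusted p under 0.05 (11.6% of all genes), and the adjusted p ran from 0.602 to 0.926. In that comparison Atp10a and Atp10d were higher in both LT-CML libraries (17.5% of all genes were) and Atp11a and Atp11b were lower (23.0% of all genes were). The median log2 difference of the 7 members was -0.05 in the pooled comparison, beside -0.04 for all genes tested. In stem against KLS- cells 1 of 7 passed and 3 had an unadjusted p under 0.05 (51.4% of all genes), and Atp9a, Atp9b and Atp11b were higher in all stem libraries, as were 27.7% of all genes.

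**Figure D3:**
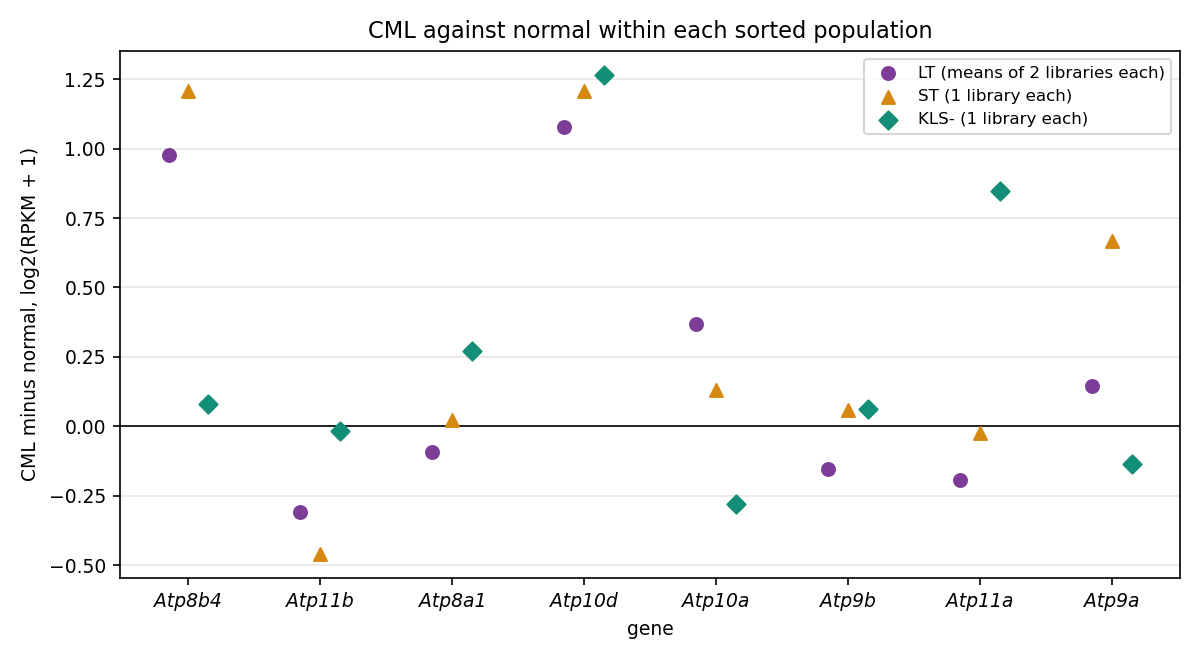
Difference between CML and normal cells on the log2(RPKM + 1) scale for the 8 members past the filter, with purple circles for LT cells (means of 2 libraries each), orange triangles for ST and green diamonds for KLS- cells (1 library each). Atp10d lies at 1.08, 1.21 and 1.27 in the 3 populations, whereas Atp8b4 is near 0 (0.08) in KLS- cells.

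Summed over the 9 genes, the family held 39.1 to 52.7 RPKM in the stem libraries and 91.3 and 101 RPKM in normal and CML-KLS- cells. Without Atp8b4 the order turned, with 38.5 to 42.8 RPKM in stem and 24.3 and 30.1 RPKM in KLS- cells. Atp8b4 made up 71.8% ± 2.23 (SD, n = 2) of the sum in KLS- cells and 0.330% to 24.6% in single stem libraries. Atp11b made up 44.9% ± 5.29 (SD, n = 3) of it in normal HSCs and 29.2% ± 1.30 (n = 3) in CML stem cells, and Atp10d 10.7% ± 2.24 and 23.0% ± 7.68. These shares are given as descriptions, since they share the Atp10d values that drew attention to the family.

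**Figure D4:**
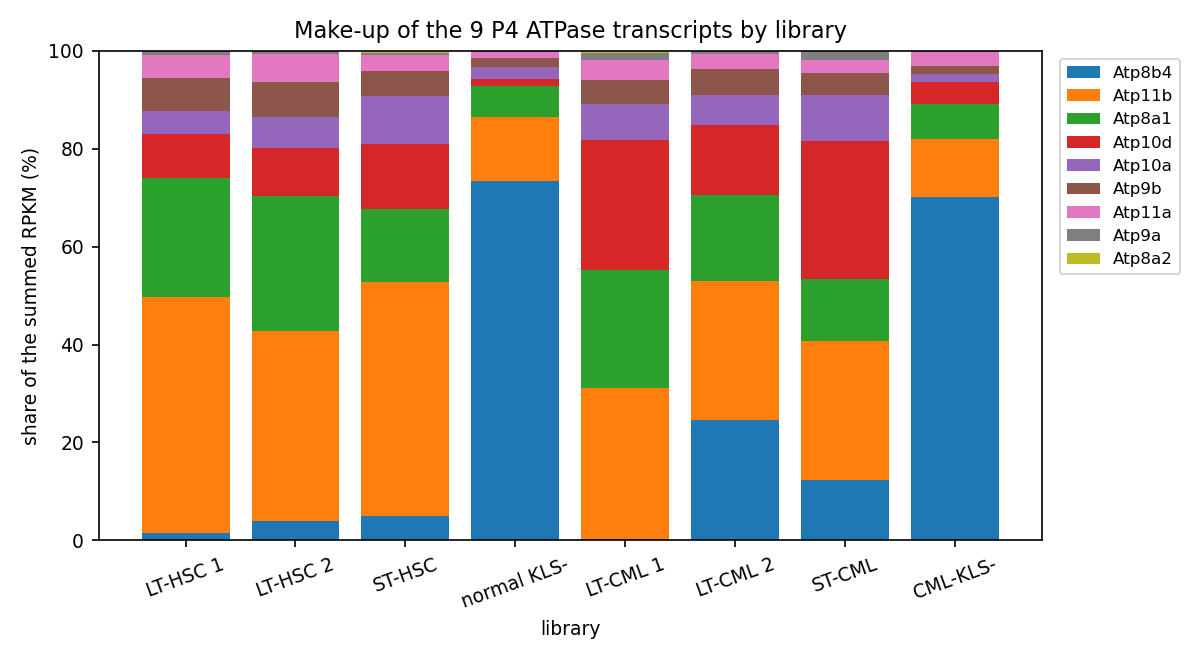
Share of each P4 ATPase gene in the summed RPKM of the 9 genes, in percent, as 1 stacked bar per library. Atp8b4 fills 73.3% and 70.2% of the normal KLS- and CML-KLS- bars, and Atp11b is the largest single share in each stem library. In ST-CML the shares of Atp11b (28.5%) and Atp10d (28.3%) are nearly equal.

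Of the P4 ATPases outside the set, Atp8b2, a phosphatidylcholine flippase, was higher in stem cells (2.01 to 3.501 RPKM) than in KLS- cells (0.909 and 0.630 RPKM), by 0.93 on the log2 scale (SE 0.16, limma adjusted p = 0.00277), which is the opposite order to its relative Atp8b4. Atp8b1, the canalicular flippase, and Atp8b3 stayed at or under 0.244 and 0.0608 RPKM. Of the CDC50 subunits, Tmem30a was at 6.92 to 12.3 RPKM and Tmem30b and Tmem30c at or under 0.0909 RPKM. Tmem30a differed by -0.07 between CML stem cells and normal HSCs (limma adjusted p = 0.921) and by 0.39 between stem and KLS- cells (limma adjusted p = 0.0848), so the partner that most members need passed in neither.

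Genes that act on the same lipids were compared as groups. Scramblases let lipids cross freely, and 8 genes listed under that name were tested. Their activity was not measured. Plscr4 fell in CML stem cells against normal HSCs by 1.45 on the log2 scale (SE 0.21, limma adjusted p = 0.0151), where 2.34% of all genes were called. Its level was 7.72 to 12.5 RPKM in normal and 2.34 to 3.41 RPKM in CML stem libraries, and no other listed gene passed. In LT cells alone Plscr4 fell by 1.48 (limma adjusted p = 0.0346), where 1.73% of all genes were called. Plscr1, Plscr2 and Plscr4 were higher in stem than in KLS- cells (0.59, 2.29 and 2.26, limma adjusted p = 0.0105, 0.0262 and 0.000406). In that comparison 41.6% of all genes were called. The median of the 8 listed genes was 0.13 for CML stem cells against normal HSCs, beside -0.04 for all genes. For stem against KLS- cells it was 0.39, beside 0.08 for all genes. Plscr1 and Plscr3 had the highest levels, at 22.3 to 40.2 and 23.8 to 33.8 RPKM.

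Glucosylceramide is the lipid given above for the branch of Atp10d. Of the genes that make, break down or move it, those named here are Gltp, Gba2, Ugcg, B4galt6, St3gal5 and Psap. These did not pass limma between CML stem cells and normal HSCs, and 0 of them had an unadjusted p under 0.05. Against KLS- cells, members of the list passed in both directions, where 41.6% of all genes were called. The transfer protein gene Gltp was higher in stem cells by 1.33 (29.4 to 47.0 RPKM against 14.7 and 11.97, limma adjusted p = 0.00111) and the glucosylceramide-cleaving enzyme gene Gba2 by 0.52 (limma adjusted p = 0.0470). The synthase gene Ugcg fell by 0.86, and the glycosyltransferase genes B4galt6 and St3gal5 by 0.69 and 1.06 (limma adjusted p = 0.0107, 0.0326 and 0.00823). Psap encodes the activator proteins of lysosomal glycolipid breakdown and had the highest level of the list. It was lower in LT than in ST cells (by -0.71, limma adjusted p = 0.0279), where 4.08% of all genes were called. Its level was 71.4 to 77.7 RPKM in LT and 116 and 135 RPKM in ST libraries.

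Of 7 lipid-exporting ABC transporters, Abcg1 and Abca1, both cholesterol exporters, and the drug exporter Abcb1b were higher in stem than in KLS- cells (1.84, 1.08 and 0.58, limma adjusted p = 0.000735, 0.000504 and 0.0497), and the phosphatidylcholine exporter Abcb4 was lower (-1.15, limma adjusted p = 0.00231). Abcg1 at 8.49 to 45.2 and Abcc1 at 9.78 to 19.1 RPKM had the highest levels. Of 6 tested genes of aminophospholipid synthesis, the ethanolamine kinase gene Etnk1 was higher in stem cells (1.02, limma adjusted p = 0.000578) and the phosphatidylserine synthase gene Ptdss2 lower (-0.57, limma adjusted p = 0.0352), and Pisd and Cept1 had the highest levels (24.2 to 38.2 and 15.1 to 24.1 RPKM). Of 7 endosome and trans-Golgi partners, the retromer genes Vps29 and Vps26a were lower in stem cells (-0.62 and -0.60, limma adjusted p = 0.00649 and 0.0106), and Vps29 and Vps35 had the highest levels (60.3 to 111 and 53.6 to 99.2 RPKM). In these 3 lists limma called no gene between CML stem cells and normal HSCs, and 0, 2 and 0 genes had an unadjusted p under 0.05, where 2.34% and 12.5% of all genes tested did so. Between stem and KLS- cells, where these lists held 4, 2 and 2 calls, 41.6% of all genes were called.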

How the data were processed

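Total RNA of cells sorted into a lysis reagent was made into libraries with an ultra-low-input oligo-dT kit and sequenced as paired reads of 100 bases. The authors mapped the reads to mm9 and deposited RPKM values per gene. The annotation and counting rule are not given in the sources used here. RPKM values are not counts, so limma 3.58.1 (R 4.3.3, lmFit and eBayes with intensity trend) was run on log2(RPKM + 1). Genes were tested where their RPKM summed to more than 1 across the 8 libraries (12561 genes), p-values were adjusted by Benjamini-Hochberg over all of these, and the threshold was 0.05. The fits were CML stem against normal HSC libraries (3 against 3), LT-CML against LT-HSC (6 population means, 2 residual degrees of freedom), LT against ST and stem against KLS- (both with disease as a term) and the disease by compartment interaction. Pairs of single libraries were compared by a fold of 2 with no test. KLS- against KLS- and ST against ST have no replicate.

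Depth was estimated from the steps between low RPKM values, and 79.3% of 5205 low genes lay on whole multiples of a step within 0.1 read. This share was too low for a count test, so the estimated reads served only to give precision. Intervals at 95% are exact Poisson intervals and cover counting error only. Sequences came from the NCBI Build 37 genome and GENCODE M1, the same build as mm9. Atp8a1, Atp8a2, Atp9b and Atp11a overlap other annotated genes, so their reads may be shared.

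In simulations of 12561 genes with 200 changed, the pooled CML fit recovered 95% of 2-fold and 100% of 4-fold changes. The LT-CML against LT-HSC fit recovered 74% and 100%, and the interaction 10% and 91%. False calls made up 5.43% to 9.22% of the calls. Changes were placed only in genes above a minimum mean level. Noise was drawn from the spread within populations, without differences between LT and ST cells. The shares recovered therefore do not give the power for low or variable genes. Alternatives were an offset of 0.1, other filters, quantile and upper-quartile scaling, no intensity trend, other covariates, and leaving out each library. The genes named are the 9 members, other P4 ATPases and CDC50 subunits, and, of the other lists, those past the threshold plus the 2 with the highest mean, and some of these are not reported here. The members and lists were chosen with earlier results of these data known. Python 3.11.15 with pandas 2.3.3 and matplotlib 3.10.9 was used for all other steps.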

Additional observations from a re-analysis of the deposited data

Results flagged for a closer look

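Among the 4 LT libraries, each member was checked for a library far from the other 3. The measure was the gap to its nearest neighbour over the whole range, on RPKM without the log. In all, 18 groups of libraries were examined, with a nominal flag rate of 1 in 20. The LT libraries mix CML and normal cells, so that rate need not hold here. Flags can also differ on the log2(RPKM + 1) scale used for the fits. Atp8b4 stood apart in LT-CML 2 at 12.96 RPKM, against 0.140 to 1.64 RPKM in the other LT libraries. LT-CML 1 stood apart for Atp9a at 0.6023 RPKM (others 0.297 to 0.327) and for Atp8a2 at 0.1966 RPKM (others 0.0114 to 0.0408), and these values rest on an estimated 46 and 15 reads. LT-CML 2 was also the stem library with the highest Mpo level, and the part of this in its Atp8b4 value was not tested.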

How the results depend on the processing

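No member other than Atp8b4 passed in the main fits, and no alternative gave a call for CML stem cells against normal HSCs, LT-CML against LT-HSCs or the interaction. Between LT and ST cells 1 member (Atp8a1) passed with a filter of a mean of at least 1 RPKM and with no intensity trend. Between stem and KLS- cells 2 members passed (Atp8b4 and Atp11b) with an offset of 0.1, with the filter on the mean, with quantile or upper-quartile scaling and with no intensity trend. Leaving out 1 library gave 0 (without the normal KLS- library) to 2 calls there, the second being Atp10a without LT-HSC 1 and Atp11b without LT-HSC 2. With an offset of 0.1, 2 members differed by over 2-fold between the KLS- libraries (Atp10d and Atp11a), and quantile scaling put the Atp8b4 share of KLS- cells at 65.8%. The Atp10d difference between CML stem cells and normal HSCs ran from 0.94 to 1.34 over 15 settings.

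Leaving out 1 library turned the sign of some log2 differences that were not called. For CML stem cells against normal HSCs, Atp8a1 ran from -0.29 to 0.14. For LT-CML against LT-HSCs, Atp8a1 ran from -0.22 to 0.033, Atp9a from -0.00029 to 0.29 and Atp8b4 from -0.83 to 2.78, its ends without LT-CML 2 and without LT-CML 1. For LT against ST, Atp8b4 ran from -1.45 to 0.10, Atp9a from -0.39 to 0.13 and Atp11b from -0.15 to 0.0031. For stem against KLS- cells, Atp11a ran from -0.62 to 0.37. The cause was not tested.

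Counts over all genes also moved. For CML stem against normal HSCs 294 genes passed, with 543 where cell type was a term, 193 with no filter and 115 to 217 without 1 library. LT against ST gave 513, with 212 without the disease term, 0 with no filter and 55 to 712 without 1 library. LT-CML against LT-HSC gave 217, with 0 unfiltered and 6 to 225 without 1 library, stem against KLS- gave 5231 with 1750 to 5275 without 1 library, and the interaction gave 1, with 10 unfiltered, 0 with an offset of 0.1, the filter on the mean or no trend, and 0 to 1 without 1 library. The interaction could not be fitted without a KLS- library. No paired analysis was possible because the LT-CML labels alone carry replicate numbers, and the normal libraries were numbered in accession order.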
